A study of Mus musculus with 2 samples.

Results

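The 10 genes described here encode the mucus layer of the intestine and the proteins that goblet cells release with it. They were chosen by name, as mucins, trefoil peptides and goblet secretions, with earlier results of these data known. Every probe set annotated to one of them alone was taken. Of the 18194 genes named on the array, these 10 were represented by 17 probe sets, with 1 probe set for 5 of the genes. RNA of the small intestine of BALB/c mice that carry an IL-9 transgene (transgenic tissue) was compared with RNA of the small intestine of wild-type mice on the same background (wild-type tissue). The mice were 6 to 8 weeks old and had received no treatment, and each pool joined RNA of 3 mice on 1 Affymetrix mouse array. The promoter that drives the transgene is not given in the sources used here. With 1 array in each group, no difference has a replicate check and no p-value is given, and the number of arrays limits the precision of every value. The tissue is a mixture of cells, so more goblet cells and more RNA per goblet cell cannot be told apart.

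Mucus is built from large glycoproteins, the mucins, which fall into 2 kinds. Secreted mucins are stored in the granules of goblet cells, released into the lumen and cross-linked into a gel, together with smaller proteins that organise the gel or act in it. Membrane-bound mucins stay anchored to the surface of epithelial cells, where they form the glycocalyx of the brush border. IL-9 and the related type 2 cytokines are known for their action on mucus-producing cells in airway and gut.

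Values are deposited intensities on a linear scale. Differences are log2(intensity + 1) of transgenic tissue minus that of wild-type tissue, and a gene with several probe sets is represented by the one with the highest mean over both arrays. The expression filter asked for a log2 value of at least 6.31 (intensity 78.5), the median of both arrays together, in at least 1 of the pools. The median intensity was 78.7 in transgenic tissue and 78.3 in wild-type tissue, and the median difference of the 11862 genes past the filter was 0.0083. Probe sets for the same gene differed among themselves with an SD of 0.23, which describes spread within these arrays and not between mice. Actin had a ratio of 3′ to 5′ signal, a sign of RNA integrity, of 1.33 in transgenic tissue and 1.61 in wild-type tissue, and the part of this in the differences below was not tested. Il9 read 62.2 in transgenic tissue and 71.6 in wild-type tissue on its probe set. The sources used here do not describe the transgene's sequence, so this value does not check the labels.

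Among the 10 genes, Clca1 and Agr2 were higher in transgenic tissue, and the main gel components Muc2, Fcgbp, Zg16 and Tff3 differed little. Muc13 was lower, but its representative difference of -0.38 lay within the central 95% of all genes past the filter (-0.49 to 0.50). A total of 7 genes passed the filter, each of them in both pools. The other members, Tff2, Muc1 and Muc4, read below it in both pools. Of the 7, 2 were higher by 1.5-fold, against 1.68% of all genes past the filter. On representative probe sets none was lower by 1.5-fold, against 1.45% of all genes. On these probe sets none passed 2-fold, against 0.607% of all genes on the higher side and 0.202% on the lower side. The median difference of the 7 was -0.0043, next to 0.0083 over all genes. With 2 of 7 genes past 1.5-fold, the count describes these arrays and has no test.

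**Figure D1:**
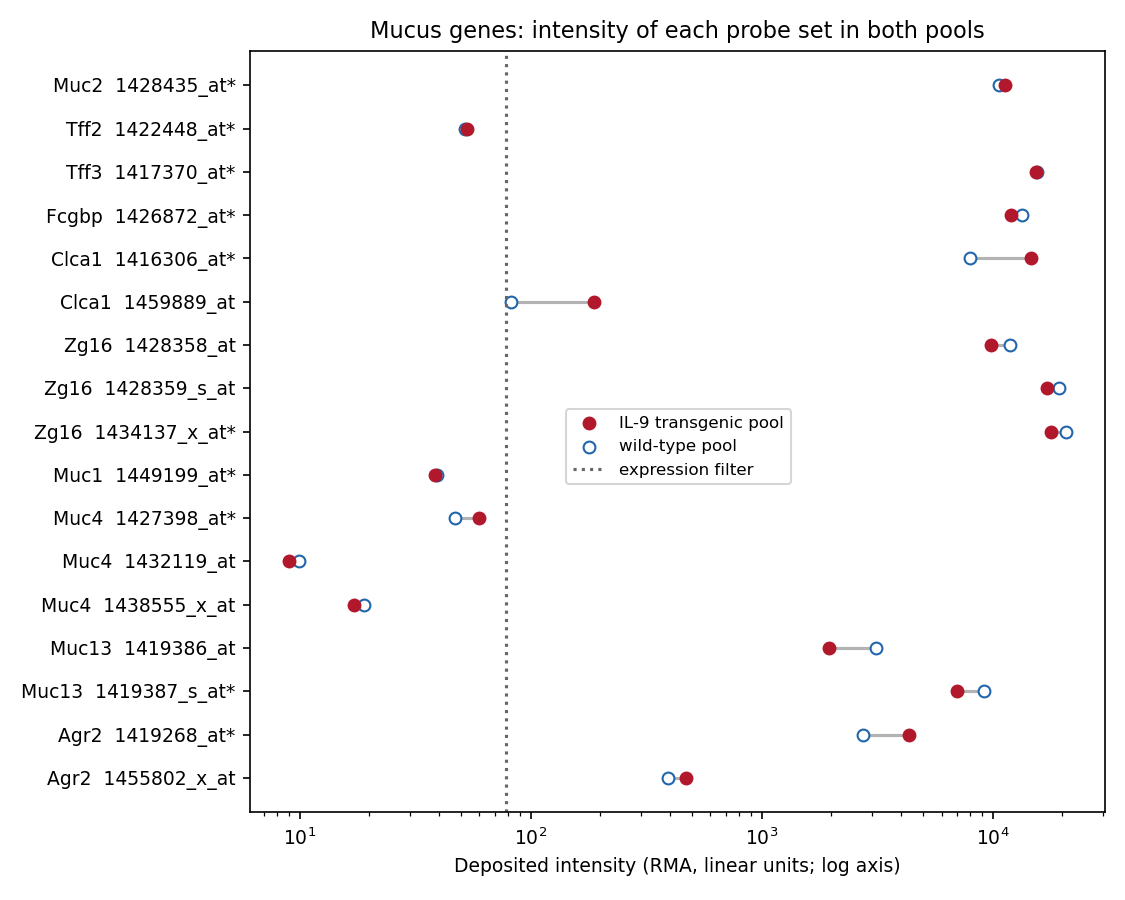
Deposited intensity (log axis) of each of the 17 probe sets in transgenic tissue (filled) and wild-type tissue (open), with the probe set that represents each gene marked by an asterisk. Both Clca1 and both Agr2 probe sets lie to the right in transgenic tissue, both Muc13 and all 3 Zg16 probe sets lie to the left, and the probe sets of Tff2, Muc1 and Muc4 lie below the filter at 78.5 (dotted line).

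The gel-forming mucin itself was level between the pools. Muc2, the structural polymer of intestinal mucus, read 11343 in transgenic tissue and 10628 in wild-type tissue, a difference of 0.094 on the log2 scale. Of all genes past the filter, 65.3% differed by at least as much in either direction. Muc2 was measured by 1 probe set, so its value has no second reading on these arrays.

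Fcgbp and Zg16, proteins bound up in the gel, were slightly lower in transgenic tissue. Fcgbp, a large protein rich in von Willebrand domains that is secreted with Muc2, read 12000 in transgenic tissue and 13329 in wild-type tissue, a log2 difference of -0.15. Zg16, a lectin-like protein that binds the cell wall of Gram-positive bacteria, read 17851 in transgenic tissue and 20728 in wild-type tissue on its representative probe set. That is a difference of -0.22, just inside the probe set SD of 0.23. A second Zg16 probe set read 17166 in transgenic tissue and 19421 in wild-type tissue, a difference of -0.18, and the third read 9836 in transgenic tissue and 11830 in wild-type tissue, a difference of -0.27. The direction was therefore the same on all 3, and their sizes are close to one another. The representative and the second probe set are of a kind that can match other transcripts, and the third is not. Of all genes, 32.1% differed by at least as much as Zg16 and 47.5% by at least as much as Fcgbp.

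The trefoil peptides showed no difference beyond the spread between probe sets. They are small, protease-resistant peptides that are secreted with mucins and act in epithelial repair. Tff3, the trefoil peptide of intestinal goblet cells, read 15428 in transgenic tissue and 15474 in wild-type tissue, a log2 difference of -0.0043. Its sign changed with the setting, over a range of -0.012 to 0.010. Tff2, the peptide of gastric mucous neck cells and duodenal Brunner glands, read 53.1 in transgenic tissue and 52.0 in wild-type tissue, below the filter in both. Tff1, a further trefoil peptide outside the 10 genes, read 662 in transgenic tissue and 617 in wild-type tissue, a difference of 0.10. In the RefSeq annotation of mouse assembly GRCm38.p6 the trefoil genes lie side by side, with Tff2 between Tff3 and Tff1.

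Clca1 showed the largest difference of the 10 genes. Clca1, also called gob-5, is a secreted metalloprotease of goblet cells that processes Muc2 in the gel. Its representative probe set read 14609 in transgenic tissue and 7966 in wild-type tissue, 1.83-fold higher or 0.87 on the log2 scale. The second probe set, much dimmer, read 188 in transgenic tissue and 82.6 in wild-type tissue, 2.26-fold higher or 1.17. Both probe sets thus agree in direction, and each passed the filter in both pools. The difference was 3.76 times the probe set SD and ranked 85 from the top among 11862 genes, and 1.04% of all genes differed by at least as much in either direction. Set against Muc2 on the same arrays, Clca1 was higher by a further 0.78 on the log2 scale.

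Clca1 and most of its companions in the gel were measured near the upper end of the intensity scale. The spread of differences there was therefore looked at on its own. A mean of at least 12 on the log2 scale, an intensity of 4095, was reached by 396 genes, among them 6 of the 10 (Muc2, Tff3, Fcgbp, Clca1, Zg16 and Muc13). The central 95% of these 396 genes lay between -0.48 and 0.45, and 1.52% were higher by 1.5-fold. Clca1 ranked 4 from the top among them, after Ang4, Iglv1 and Gpx2. The highest intensity of any probe set was 24147 in transgenic tissue and 25799 in wild-type tissue. Whether differences are shrunken near that end, also for Muc2, Tff3, Fcgbp and Zg16, was not tested.

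The close relatives of Clca1 did not show its difference. In GRCm38.p6, Clca1 lies in a row of related genes between Clca4a and Clca2. Clca4a, an enterocyte member of the family, read 4615 in transgenic tissue and 7131 in wild-type tissue, a difference of -0.63. Clca4b read 9494 in transgenic tissue and 11801 in wild-type tissue, a difference of -0.31. Clca3b differed by -0.02, and the brighter probe set of Clca3a1 by -0.02 (its dimmer one by -0.68), while Clca2 and Clca3a2 read below the filter. These relatives were named after their values were seen. Probe sets of a gene family can share sequence. Clca4a and Clca4b lay on the other side of 0 from both Clca1 probe sets.

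**Figure D2:**
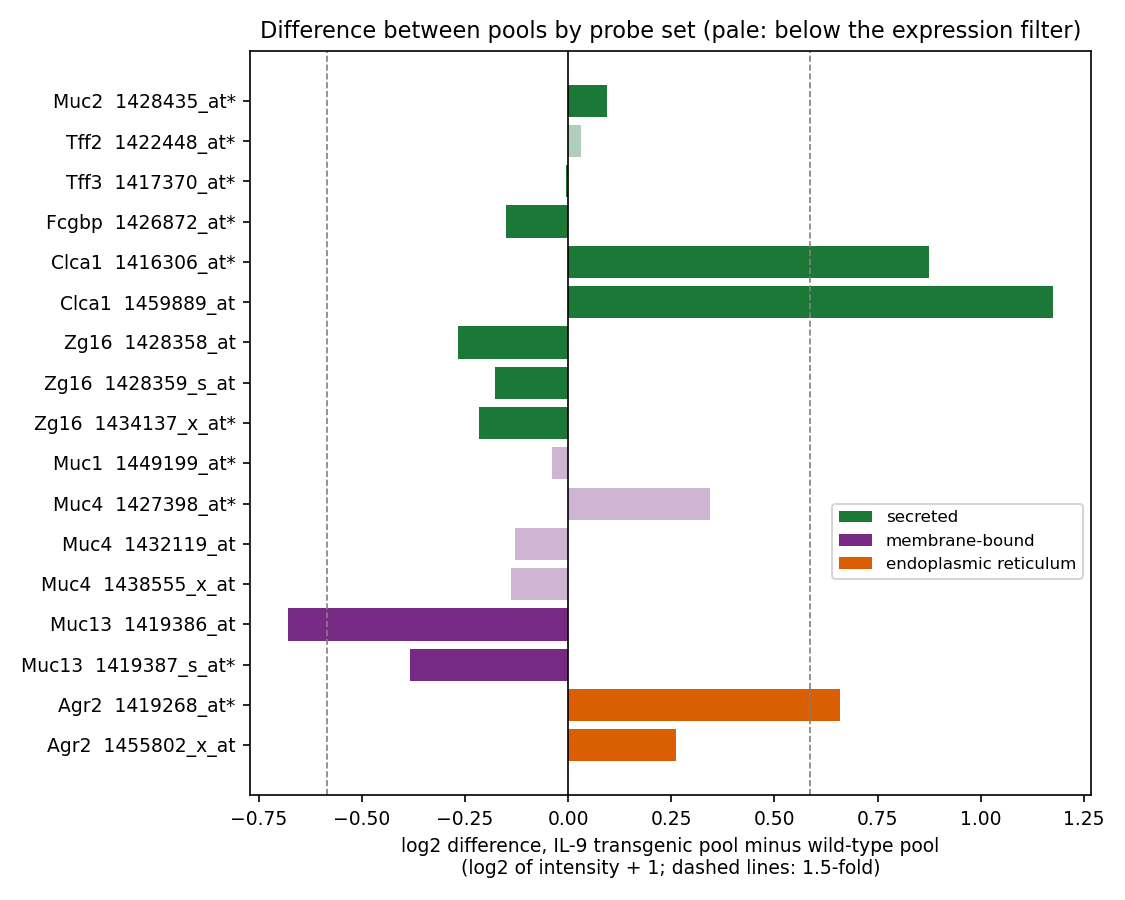
The log2 difference, transgenic minus wild-type tissue, of each of the 17 probe sets, coloured by where the protein resides, with pale bars for probe sets below the expression filter. Both Clca1 probe sets (0.87 and 1.17) and 1 of the 2 Agr2 probe sets (0.66) lie past the 1.5-fold line on the higher side, and 1 of the 2 Muc13 probe sets (-0.68) on the lower side.

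Agr2 was also higher in transgenic tissue. Agr2 is a protein disulfide isomerase of the endoplasmic reticulum that is needed to fold Muc2. Its representative probe set read 4343 in transgenic tissue and 2752 in wild-type tissue, 1.58-fold higher or 0.66 on the log2 scale. The second probe set, of a kind that can match other transcripts, read 472 in transgenic tissue and 394 in wild-type tissue, 1.20-fold higher or 0.26. The direction was shared and the size was not, and the mean of both was 0.46, under 1.5-fold. On the representative probe set, Agr2 ranked 149 from the top. Its neighbour and relative Agr3 read 85.0 in transgenic tissue and 77.5 in wild-type tissue, a difference of 0.13.

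Of the membrane-bound mucins among the 10 genes, Muc13 alone passed the filter, and it was lower in transgenic tissue. Muc13 is a transmembrane mucin of the apical surface of enterocytes and goblet cells. The representative probe set read 7006 in transgenic tissue and 9132 in wild-type tissue, 1.30-fold lower or -0.38 on the log2 scale. It is of a kind that can match other transcripts. The second probe set, not of that kind, read 1957 in transgenic tissue and 3131 in wild-type tissue, 1.60-fold lower or -0.68. Both lay on the same side of 0, and the second was past 1.5-fold where the first was not. Of all genes, 10.5% differed by at least as much as the representative probe set.

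Muc1 and Muc4 gave no usable difference. Muc1, a signalling mucin of many epithelia, read 38.4 in transgenic tissue and 39.5 in wild-type tissue. The brightest of the 3 probe sets of Muc4, a large mucin that can bind the receptor ErbB2, read 60.0 in transgenic tissue and 47.1 in wild-type tissue, a difference of 0.34. The other Muc4 probe sets lay at -0.13 and -0.14, so no direction is given for this gene. Background signal shrinks folds at these intensities, and no detection calls came with the values, so neither gene is called absent.

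The comparison of secreted with membrane-bound genes rested on few usable values. The 6 secreted genes ran from -0.22 in Zg16 to 0.87 in Clca1 with a median of 0.013, and the 3 membrane-bound genes had a median of -0.039. The difference of these medians was 0.052. The membrane-bound median is the value of Muc1, which read below the filter, so it describes the class poorly. Over genes past the filter the difference was 0.38, but it then set 5 secreted genes against Muc13 alone. Summed over the genes, intensity was 71284 in transgenic tissue and 68178 in wild-type tissue for the secreted class, a ratio of 1.05. For the membrane-bound class it was 7104 in transgenic tissue and 9219 in wild-type tissue, a ratio of 0.77 that rests almost wholly on Muc13. Without Clca1 the difference of medians was 0.035.

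The choice of membrane-bound genes set even the sign of that comparison. Muc3, a further membrane-bound mucin of the intestine that is not among the 10, read 6670 in transgenic tissue and 3776 in wild-type tissue, 1.77-fold higher or 0.82 on the log2 scale. With Muc3 added, the median of the membrane-bound class was 0.15 and the difference of medians was -0.14. Muc3 and Muc13, both apical mucins of the brush border, thus lay on opposite sides of 0. Muc3 was measured by 1 probe set, whose annotation dates from the platform table.

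**Figure D3:**
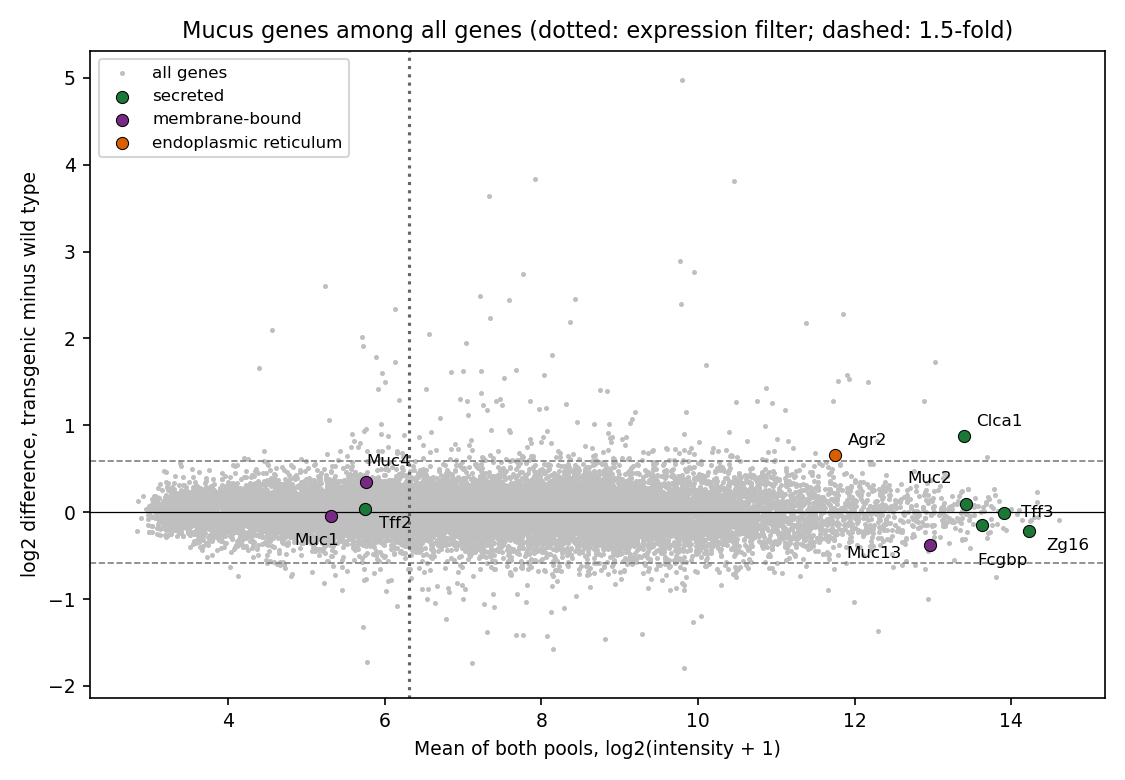
The log2 difference of each of 18194 genes against its mean level over both pools, with the 10 mucus genes coloured by class. Clca1 (0.87) and Agr2 (0.66) lie above the 1.5-fold line, Muc13 (-0.38) lies below 0 but inside it, and Tff2, Muc1 and Muc4 lie left of the expression filter (dotted line).

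Promoter sequences were held for 6 of the 10 genes in a RefSeq table of mouse assembly GRCm38.p6, namely Muc2, Fcgbp, Muc1, Muc4, Muc13 and Agr2. Those of a higher gene (Agr2), a lower gene (Muc13, the first of its 2 annotated starts) and the level gel mucin (Muc2) are shown for comparison, as the 250 bases before the start of transcription on the plus strand. Agr2 is at chr12:35992675-35992924, Muc13 at chr16:33793787-33794036 and Muc2 at chr7:141690090-141690339. Capitals mark matches on either strand to CAGCTG or CAGATG (E-boxes, the kind of site bound by Atoh1), TGTTTNC (forkhead), TTCNNNGAA (STAT) and TATAAA.
Agr2: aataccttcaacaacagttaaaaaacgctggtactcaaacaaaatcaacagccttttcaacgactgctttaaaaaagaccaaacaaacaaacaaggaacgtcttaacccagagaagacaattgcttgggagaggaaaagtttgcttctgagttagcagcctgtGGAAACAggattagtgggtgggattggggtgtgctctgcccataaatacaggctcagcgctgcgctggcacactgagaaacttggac
Muc13: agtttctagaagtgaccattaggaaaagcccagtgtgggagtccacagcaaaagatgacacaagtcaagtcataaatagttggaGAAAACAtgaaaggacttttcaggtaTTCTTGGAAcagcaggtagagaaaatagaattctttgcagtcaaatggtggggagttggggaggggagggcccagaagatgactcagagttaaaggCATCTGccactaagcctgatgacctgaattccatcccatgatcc
Muc2: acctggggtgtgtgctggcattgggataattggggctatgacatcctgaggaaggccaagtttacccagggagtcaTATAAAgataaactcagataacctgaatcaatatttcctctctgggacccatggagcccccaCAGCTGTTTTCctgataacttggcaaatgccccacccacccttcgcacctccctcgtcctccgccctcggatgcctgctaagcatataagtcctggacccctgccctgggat

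The Agr2 window held a forkhead match, the Muc13 window a forkhead, an E-box and a STAT match, and the Muc2 window an E-box, a forkhead and a TATAAA match. The E-box and the forkhead match of Muc2 overlap. The windows of Fcgbp and Muc1 held an E-box match each, and those of Muc1 and Muc4 held TATAAA. The second Muc13 start held no match. In 32851 promoter windows of the same length, CAGCTG was found in 13.0%, CAGATG in 14.4%, TGTTTNC in 17.8%, TTCNNNGAA in 7.02% and TATAAA in 12.4%. These matches are letters in a window and not binding sites, and nothing in the arrays measures binding.

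Other goblet cell products were more often higher than lower in transgenic tissue. This list and those below were chosen with earlier results of these data known, so their counts are no test. Of 26 listed, 23 passed the filter, of which 18 lay above 0 and 5 below, and the median was 0.18, next to 0.0083 over all genes. Over all genes past the filter, 6095 lay above 0 and 5643 below. By 1.5-fold, 6 products were higher and 1 was lower, against 1.68% and 1.45% of all genes. The lower one was Clca4a, listed for its family and known from enterocytes, and its relative Clca4b lay at -0.31. The list holds genes of other cells on both sides of 0, so its counts and median do not describe goblet cells alone. By 2-fold 3 were higher, against 0.607% of all genes. These 3 were Retnlb, a resistin-like peptide of goblet cells (567 in transgenic tissue and 44.6 in wild-type tissue), Ang4, an antimicrobial ribonuclease also made by Paneth cells (15190 in transgenic tissue and 4590 in wild-type tissue), and Klk1, a tissue kallikrein (3060 in transgenic tissue and 1281 in wild-type tissue). Retnlb passed the filter in transgenic tissue alone, as did Agr3, so Retnlb could only be counted on the higher side. Among the 21 products past the filter in both pools, 5 were higher by 1.5-fold, against 162 of 11367 over all genes. Klk1 belongs to a family of close paralogs, and its probe sets ran from 0.12 to 1.32. Without these 3 genes the median was 0.12. Spink4, a protease inhibitor packed with mucins, read 16490 in transgenic tissue and 10575 in wild-type tissue, a difference of 0.64, and was singled out after its value was seen. Among products past the filter in both pools, the differences of Muc2, Tff3, Fcgbp and Zg16 lay between -0.22 and 0.094, while those of Spink4, Agr2, Clca1 and Ang4 ran from 0.64 to 1.73. Both groups were formed after the values were seen. Other products lay between them on representative probe sets, among them Itln1 (0.18), Rep15 (0.29), Sytl2 (0.40) and Ccl9 (0.55). Tpsg1 (0.75) and Klk1 (1.26) also lay in the higher range, and the second Agr2 probe set (0.26) lay below it.

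Genes that fold and glycosylate mucins were mostly level. Of 30 listed, 24 passed the filter, 15 lay above 0 and 8 below, and the median was 0.10. By 1.5-fold 1 was higher and none was lower, against 1.68% and 1.45% of all genes past the filter. The higher one was St3gal4, a sialyltransferase, with 911 in transgenic tissue and 62.9 in wild-type tissue, where it read below the filter. Of the 21 past the filter in both pools, 0 were higher by 1.5-fold, against 162 of 11367 over all genes. B3gnt3, which extends mucin-type glycans, was next, at 488 in transgenic tissue and 325 in wild-type tissue, a difference of 0.58. Among 15 genes of ion supply and granule release, the median was 0.022. By 1.5-fold 1 was higher and 1 was lower, against 1.68% and 1.45% of all genes. The higher one was Slc9a3, the apical sodium-hydrogen exchanger (0.70), and the lower one Mep1a, a subunit of the brush border protease meprin (-0.69). The other Mep1a probe set lay at -0.79, and the other Slc9a3 probe set, below the filter in both pools, at 0.37, under 1.5-fold.

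Among 8 regulators of the goblet lineage, 2 were higher by 1.5-fold, against 1.68% of all genes past the filter, and the median was 0.15. Gfi1 passed the filter in transgenic tissue alone. The median of the other 7 was 0.090, next to 0.0072 over all genes past the filter in both pools. Atoh1, which commits cells to the secretory lineage, read 700 in transgenic tissue and 389 in wild-type tissue, a difference of 0.85. Spdef, which drives goblet cell maturation, read 308 in transgenic tissue and 172 in wild-type tissue, a difference of 0.84. Of the other mucins, Muc5b read 116 in both pools, Muc5ac lay below the filter, and the membrane-bound sialomucin Cd164 differed by -0.17.

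**Figure D4:**
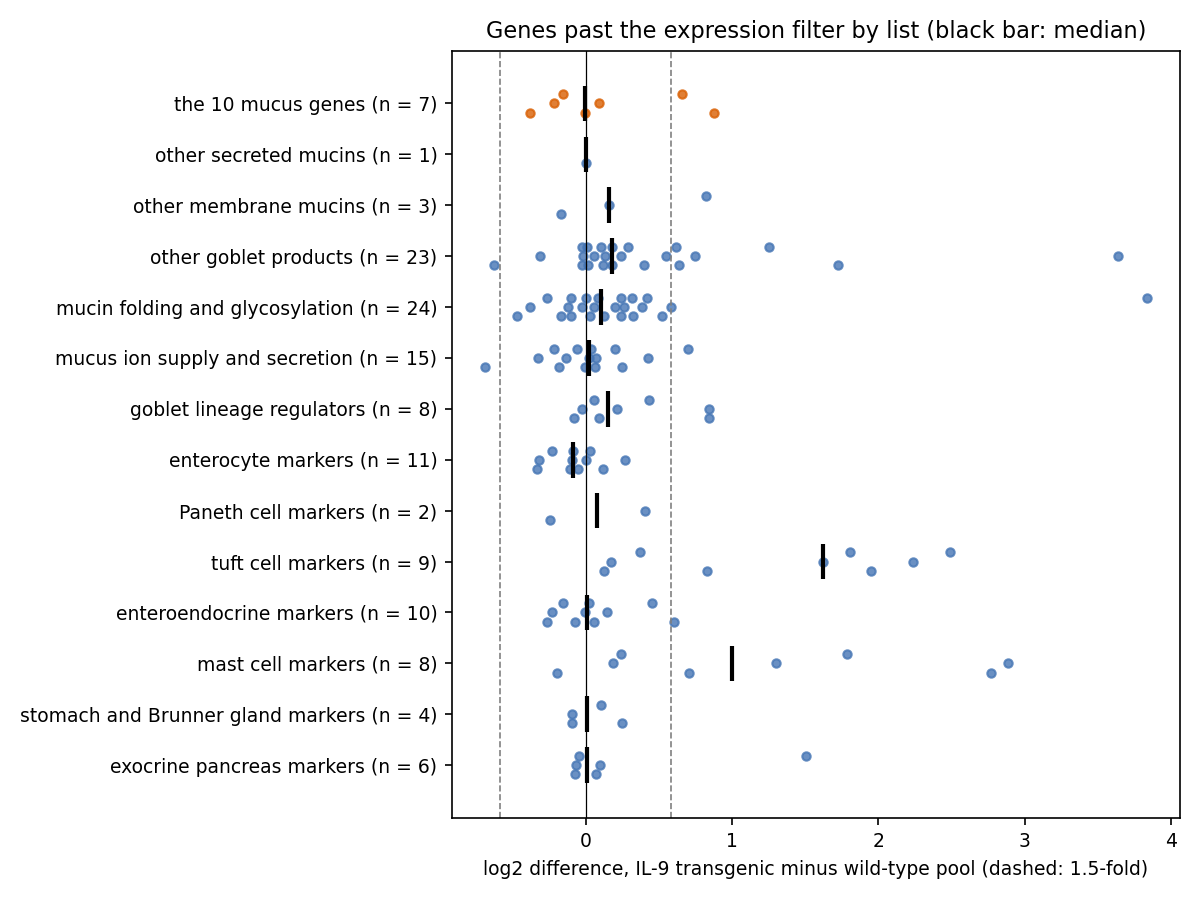
The log2 difference of each gene past the expression filter, by list, with the median as a black bar and the mucus genes on top. The 7 mucus genes past the filter spread to both sides of 0 around a median of -0.0043, while the tuft cell and mast cell lists lie mostly to the right, in part through genes past the filter in transgenic tissue alone (5 of 9 and 2 of 8).

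Markers of other cell types were set beside these values. Over all genes past the filter, 1.68% were higher and 1.45% lower by 1.5-fold. Of 11367 genes past the filter in both pools, 162 were higher by 1.5-fold. Of 9 tuft cell genes past the filter, 5 (Dclk1, Avil, Rgs13, Sh2d6 and Il17rb) passed in transgenic tissue alone, and of the other 4, 2 were higher by 1.5-fold, with a median of 0.50. The summed intensity of the 9 was 2733 in transgenic tissue and 1293 in wild-type tissue. The largest differences were those of Rgs13 (2.49), Avil (2.24), Dclk1 (1.95) and Alox5ap (1.80), and the smallest those of Pou2f3 (0.17) and Plcg2 (0.12). The probe sets of Dclk1 ran from 0.24 to 1.95. Of 8 mast cell genes past the filter, Fcer1a and Cpa3 passed in transgenic tissue alone, and of the other 6, 3 were higher by 1.5-fold, with a median of 0.47. Over all 11 listed the median was 0.70 and the summed intensity was 6009 in transgenic tissue and 1401 in wild-type tissue. The mucosal mast cell proteases Mcpt2 and Mcpt1 differed by 2.89 and 2.77, Fcer1a by 1.79 and Cpa3 by 1.30. The rise was not shared by the whole list. The remaining genes past the filter were Kit (0.71), Gata2 (0.24), Cma1 (0.18) and Hdc (-0.19). None of 11 enterocyte genes passed 1.5-fold, with sums of 148882 in transgenic tissue and 154899 in wild-type tissue and a median of -0.089. Treh, which cleaves trehalose, and Lct, lactase, differed most, by -0.33 and -0.32. Of 10 enteroendocrine genes 1 was higher by 1.5-fold, Tph1 of serotonin synthesis (0.61), followed by Gcg, proglucagon (0.45), and the median was 0.0096. For 4 genes of stomach and Brunner glands past the filter the median was 0.0060 and none passed 1.5-fold, the furthest from 0 being Atp4b (0.25) and Tff1. Of the exocrine pancreas list, 6 of 10 genes on the array passed the filter, with a median of 0.011. Of these 1, the lipase cofactor Clps, was higher by 1.5-fold. Summed over the 10, intensity was 6946 in transgenic tissue and 3076 in wild-type tissue, of which Clps gave 5963 and 2099. Clps differed by 1.51 and Ctrl, next, by 0.098. Of the Paneth cell list only 3 of 13 genes were named on the array, with Mmp7 at 0.40 and Lyz1 at -0.25. The part of these cell types in the differences of the mucus genes was not tested.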

How the data were processed

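Small intestine RNA pooled from 3 mice of each genotype was hybridised to 1 Affymetrix array per genotype, starting from 10 µg of total RNA, per the labels' protocols. The deposited values are probe set intensities on a linear scale; RMA (background correction, quantile normalization and summary of probes) is named in the submitters' processing notes, with no version. The sources used here give no genome build or chip annotation. Because RMA equalises the arrays, a shift shared by most genes cannot be seen.

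Of 45101 probe sets, 34958 carried 1 symbol in a platform annotation table, 932 several and 9211 none; only those with 1 were named, and 0 symbols needed an update through the RefSeq gene table. Differences were taken on log2(intensity + 1) with Python 3.11.15, numpy 2.4.6 and pandas 2.3.3. The calculation was tested on simulated data, with shifts larger than any difference of the 10 genes and calls at 2-fold. Calls at 1.5-fold were not simulated. Counts past 1.5-fold and 2-fold are set beside those over all genes past the filter. Alternatives were the pseudocount, the choice of probe set, normalization and the filter. All 10 members are named, and from each further list up to 4 genes past 2-fold, or else the 2 that differed most; any other gene was picked with its value in view. The members and lists were chosen with earlier results of these data known.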

Additional observations from a re-analysis of the deposited data

How the results depend on the processing

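Of 205 values recomputed, 193 moved by less than 0.23, the probe set SD, or, for counts, by at most 1.5 times, and 0 values past 1.5-fold changed sign. Among the 10 genes, 58 of 60 recomputed differences moved by less than that SD. The exceptions were Muc4, at 0.025 as the mean over its probe sets, and Muc13, at -0.68 once probe sets open to other transcripts were left out. Some of the 60 could not move. The 5 genes with 1 probe set keep their value under any choice of probe set. Clca1, Muc4 and Agr2 keep theirs when probe sets open to other transcripts are left out. Clca1 ranged from 0.86 to 1.02 and Agr2 from 0.46 to 0.66. As means over probe sets, 1 gene was higher by 1.5-fold in place of 2, since Agr2 fell short. With probe sets open to other transcripts left out, Muc13 became the 1 gene lower by 1.5-fold, and the secreted minus membrane-bound difference over genes past the filter was 0.67 in place of 0.38. With no filter that difference was 0.052, since Muc1, Muc4 and Tff2 then entered. With Muc3 added to the membrane-bound genes, a choice made after seeing the data, the difference of medians was -0.14. Its sign thus changed, although the value counts among the 193. No paired analysis was possible because each group has 1 array. For the same reason no replicate could be left out. The expression filter limits what can be said of Tff2, Muc1 and Muc4.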
